A study of Mus musculus with 72 samples.

Results

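The tumor-draining lymph nodes (TDLN) of Isotype mice were compared between study day 23 and study day 16, chosen by the Isotype arm and the tissue and day in the library names. They make up 6 of the 72 libraries of the series, 3 nodes at day 16 (mice 4, 5 and 6) and 3 at day 23 (mice 8, 9 and 10), each from a different mouse. All 6 came from BALB/c mice bearing CT26, a transplantable mouse colon carcinoma line, and received Isotype, the control treatment of the study. All were kept in RNAlater, an RNA preservative, and labelled batch 2. The series has 5 further arms (PD1 and CYTO singly, PD1/CYTO together, and TS with CYTO, as TS/CYTO, or with both, as TS/PD1/CYTO), whose 30 nodes on the same 2 days serve here for comparison, and the labels do not spell out CYTO or TS. Age, sex and the site of the tumor are not given in the sources used here, and no node of a tumor-free mouse was analysed here, so a change with tumor growth and a change with time cannot be told apart.

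A draining lymph node collects lymph, antigen and migrating cells from the tumor. T cells and B cells enter it through high endothelial venules, meet antigen on dendritic cells, and either leave again or develop into effector cells, regulatory T cells or antibody-secreting plasma cells. Macrophages line its sinuses, and type I interferon acts on most of its cells by inducing antiviral genes, many of which carry the interferon-stimulated response element in their promoters.

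Expression was measured on polyadenylated RNA by paired-end sequencing that keeps the strand, and deposited as log2(TPM + 1), where TPM is transcripts per 1e+06 transcripts, a level per length of transcript. All values below are on this log2 scale unless TPM is named, and a difference is day 23 minus day 16. The lowest value, 0.01, is called the floor and stands for a TPM of 0 or 0.01. Of 16835 listed genes, 11852 were tested, those that exceeded the floor in 3 or more of the 6 nodes. The libraries had 11632 to 11981 genes above the floor, listed genes took 810276 to 834244 TPM of each, and read numbers are unknown. The RNA integrity number (RIN) was 7.9 to 8.3 at day 16 and 7.4 to 7.9 at day 23, a difference of -0.33 (exact two-sided permutation p = 0.3). Correlated with the means of the 3 tissues of the series, each of the 6 libraries was closest to nodes (Pearson r 0.985 to 0.994). Every gene of the T cell, B cell and node stroma lists was above the floor in at least 1 of them. Of the 13 skeletal muscle genes in the table, 8 were at the floor in all 6 nodes, ACTA1 and CKM among them. The CT26 tumor cell list was present in every node, with a summed level of 310 to 658 TPM at day 16 and 430 to 560 TPM at day 23.

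Tumors were larger in the day 23 mice. The volumes were 161.3, 244.1 and 522.5 mm3 in mice 4, 5 and 6, and 1623, 1002 and 1772 mm3 in mice 8, 9 and 10. The groups did not overlap, and the mean log2 volume differed by 2.38 (exact two-sided permutation p = 0.1, the smallest that 3 mice against 3 allow).

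The spread between mice was estimated in limma over all 36 nodes, in 12 groups of 3. Of the treated nodes, 3 stood apart, all of day 16 and none of the Isotype arm: their median correlation with the other nodes was 0.76 (PD1, mouse 16), 0.767 (PD1/CYTO, mouse 22) and 0.719 (TS/PD1/CYTO, mouse 34). Their T cell list means were 3.11, 2.16 and 2.58 (6.64 to 7.13 in Isotype nodes). Mouse 22 correlated more with the tumors (r 0.974) than with the nodes (r 0.783). Mouse 34 had a skeletal muscle list mean of 10.70 (2.10 to 2.31 in Isotype nodes). Adipocyte list means were 9.59 in mouse 16 and 9.16 in mouse 34 (5.26 to 6.80 in Isotype nodes). How much other tissue these 3 libraries held was not tested. They raised the median residual SD of a gene from 0.169 without them to 0.332 with them, against 0.126 within the Isotype nodes alone. Unadjusted p-values are therefore given from the fit of all 36 nodes, and also without these 3 where a gene is described in detail, an alternative added after the data were seen. Fits with log2 tumor volume or the adipocyte list mean as a covariate, given below, took the slope from all 36 nodes, these 3 included. They were not rerun without these 3.

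No gene passed the 5% Benjamini-Hochberg threshold in limma between day 23 and day 16 (0 of 11852, or 0%, with a smallest adjusted p of 1). At an unadjusted p under 0.05 there were 72 genes, 13 higher at day 23 (0.11%) and 59 lower (0.498%). Without the 3 nodes that stood apart the count of adjusted calls was also 0, with 682 genes at an unadjusted p under 0.05 and a smallest adjusted p of 0.74. All differences described below are therefore measured values that did not pass the test across genes, apart from 3 genes in an alternative fit described next.

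In the 6 Isotype nodes fitted alone, 3 genes were past the 5% threshold in limma (0.0253% of the genes tested), all short non-coding RNA genes, and there were 1376 genes at an unadjusted p under 0.05, 123 higher (1.04%) and 1253 lower (10.6%). MIR1291, a microRNA precursor gene, was 3.06, 2.78 and 3.58 at day 16 and at the floor in all 3 day 23 nodes. SNORA31, a small nucleolar RNA of the class that guides pseudouridine formation in RNA, was at the floor in all 3 day 16 nodes and 2.61, 3.14 and 2.44 at day 23. SNORA43, of the same class and named after its values were seen, was at the floor in all 3 day 16 nodes and 3.01, 2.37 and 3.70 at day 23. The groups did not overlap for any of these genes, but each passed the filter on low values through 1 day only, so it had to differ, and its p-value supports nothing.

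In the treated nodes both floor and measured values of these genes were found on each day. MIR1291 was at the floor in 14 of 15 treated nodes of day 16 and 12 of 15 of day 23. SNORA31 was at the floor in 10 of 15 and 7 of 15, and SNORA43 in 4 of 15 and 7 of 15. GENCODE M21 (mm10) places MIR1291 at chr15:98519762-98519878 on the minus strand inside KANSL2, and SNORA31 at chr14:75847905-75848034 on the plus strand inside TPT1. Whether reads of the host genes were counted for them was not tested. SNORA43 has 2 annotated overlapping copies on chromosome 2 and its value is uncertain. The mature microRNA of MIR1291 is shown to identify the gene. The sequence is from RefSeq (GRCm38.p6), with the seed, bases 2 to 8, in capitals; the value above belongs to the precursor gene of 117 bases and not to this mature form.
mmu-miR-1291: aUGGCUCUuacugaagacuagcaguu

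Across all tested genes the median difference was -0.08, with 8550 genes (72.1%) negative and 3221 (27.2%) positive. In 221 genes (1.86%) all 3 day 23 values lay above all 3 day 16 values, and in 1789 (15.1%) all lay below. This excess of lower genes depended on the scaling: after quantile normalization 915 genes (7.72%) lay wholly above and 941 (7.94%) wholly below, and the median difference was 0.001. Counts of genes whose days do not overlap are therefore given under both scalings.

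Differences between mice of the same day covered the range seen between days. The SD of the gene-by-gene differences was 0.308 to 0.446 between day 16 mice, 0.239 to 0.296 between day 23 mice and 0.267 to 0.385 between mice of different days. The pair furthest apart was mice 4 and 6, both of day 16, with 508 genes over 1 log2 unit apart. The first principal component (41.7% of the variance) spread the day 16 mice from -19.4 (mouse 4) to 26.3 (mouse 6), and the second (24.7%) separated the days, with scores of 3.7 to 18.7 at day 16 and -3.5 to -15.9 at day 23.

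**Figure D1:**
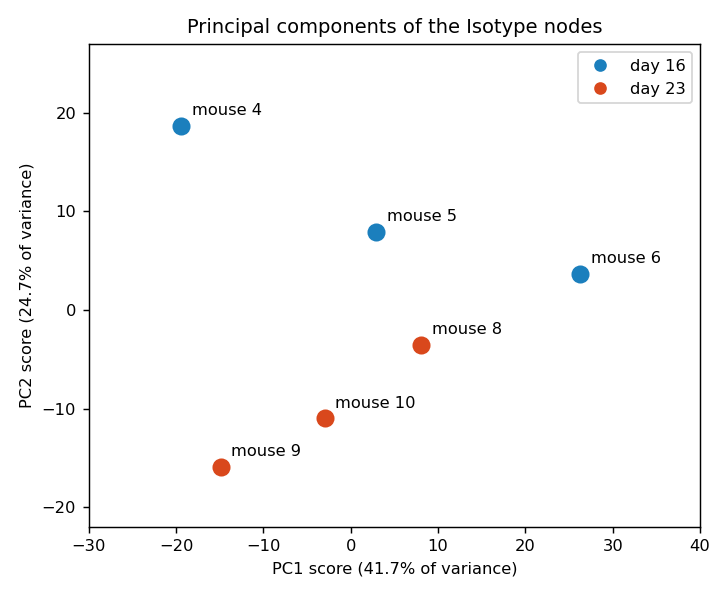
Scores of the 6 Isotype nodes on the first (x axis, 41.7% of the variance) and second (y axis, 24.7%) principal components of 11852 genes, 1 point per mouse, coloured by day. Mice 4 and 6, both of day 16, lie at the ends of the first component, and all day 23 nodes lie below all day 16 nodes on the second.

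Type I interferon response genes had lower values at day 23. All 19 tested had negative differences, from -0.25 to -1.30, with a median of -0.60 against -0.08 over all genes. None passed the adjusted test in limma, and 4 had an unadjusted p under 0.05, all lower, against a background of 0.498% of genes. In 11 of the 19 all day 23 values lay below all day 16 values, under the deposited scaling (background 15.1%) and after quantile normalization (background 7.94%). In these bulk samples, fewer cells that express a gene and less RNA per cell cannot be told apart.

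The genes with the smallest p in the list were IFIT3 and IFIT1, which belong to a family of interferon-induced proteins that bind viral RNA or its partners. IFIT3 was 5.18, 4.43 and 5.33 at day 16 and 3.87, 3.43 and 3.75 at day 23. The days did not overlap, with mouse 5 the lowest of day 16 and still above every day 23 node. The mean TPM was 31.7 at day 16 and 12 at day 23, and the difference was -1.30 ± 0.40 (SE, limma unadjusted p = 0.00349, 0.00133 without the nodes that stood apart, adjusted p = 1). Mouse has a near-identical neighbour gene, Ifit3b, so the split of reads between the pair is uncertain. IFIT1 was 3.74, 3.24 and 4.01 at day 16 and 2.69, 2.24 and 2.22 at day 23, again without overlap. Its difference was -1.28 ± 0.41 (SE, limma unadjusted p = 0.00474, 0.00171 without those nodes).

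OAS2, an enzyme that makes the 2'-5' oligoadenylates that activate RNase L, was 3.76, 3.86 and 4.29 at day 16 and 3.29, 3.06 and 2.92 at day 23, without overlap (-0.88 ± 0.40 SE, limma unadjusted p = 0.0349). RTP4, an interferon-induced protein, did overlap: mouse 4 of day 16 (5.19) lay below mouse 8 of day 23 (5.35), and the difference was -0.59 ± 0.24 (SE, limma unadjusted p = 0.0228). Further members were named after their values were seen. OAS3, of the same enzyme family as OAS2, was 3.32 to 3.46 at day 16 and 2.26 to 2.64 at day 23. IRF7, the transcription factor that amplifies interferon production, was 6.84 to 7.46 and 6.22 to 6.64. ISG15, a ubiquitin-like modifier, was 5.41 to 5.86 and 4.80 to 5.31. MX1, an antiviral GTPase, was 3.92 to 4.39 and 3.31 to 3.82. Each of these was below its day 16 range in every day 23 node.

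**Figure D2:**
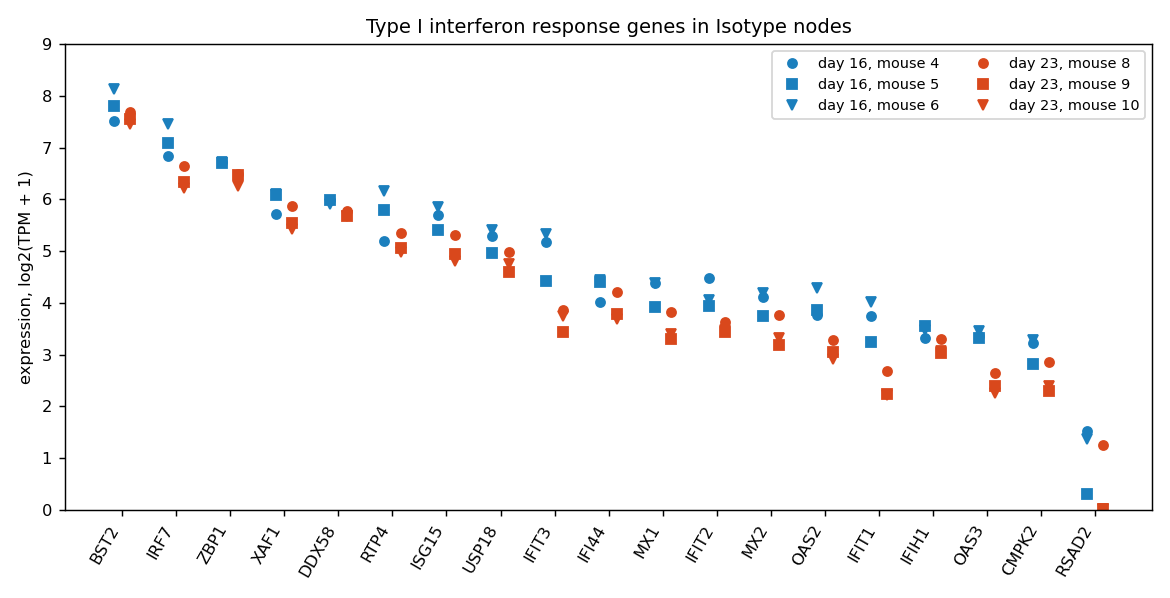
Expression, log2(TPM + 1), of the 19 tested type I interferon response genes (x axis, ordered by day 16 mean) in each Isotype node, with 1 symbol per mouse. In 11 genes, IFIT3, IFIT1 and OAS3 among them, the 3 day 23 points lie below all 3 day 16 points; RSAD2 is near the floor in day 23 mice 9 and 10.

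LGALS9, which encodes galectin-9, a sugar-binding protein that is itself interferon-inducible, had the second smallest p among genes lower at day 23. It was 7.20, 7.21 and 7.32 at day 16 and 7.08, 6.83 and 6.93 at day 23, a small difference of -0.30 ± 0.09 (SE, limma unadjusted p = 0.00297) without overlap. Interferon-gamma response genes gave other values: of 20 tested, 14 were lower and 6 higher, where 72.1% of all genes were lower. The median difference was -0.06, and the days separated in 0 of 20, or in 1, higher at day 23, after quantile normalization (background 7.72%). CXCL10, a chemokine that draws activated T cells, had the smallest p of that list, with 4.23, 3.42 and 3.76 at day 16 and 3.79, 2.98 and 3.03 at day 23, which overlapped. Plasmacytoid dendritic cell genes, markers of a cell type known for making type I interferon, were lower in 8 of 8, with a median of -0.20. That median was -0.31 without mouse 8, -0.13 without mouse 10, -0.04 with tumor volume as a covariate and -0.10 after quantile normalization. BST2 is counted in this list and in the type I interferon list. The days did not overlap in 3 of the 8 (background 15.1%), and in 0 after quantile normalization (background 7.94%).

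Promoters of 4 of these genes, all with matches, are shown because their letters can be compared with the interferon-stimulated response element. Each sequence runs from 250 bases before to 50 after the start of the gene (RefSeq, GRCm38.p6), 5' to 3' on the strand of the gene, and capitals mark matches of its core, a pair of GAAA separated by any 2 bases, on either strand, with overlapping matches allowed. The core was found in 337 of 11648 promoters of tested genes (2.89%) and in 8 of the 14 promoters available for genes of the type I interferon list (57.1%). Among genes lower at day 23 at an unadjusted p under 0.05 in limma, the core was in 4 of 50 promoters (8.0%), IFIT1, IFIT3 and LGALS9 among these. Among genes higher at that threshold it was in 0 of 11. It was 1 of 12 motifs searched. The promoters of IFIT1 (chr19:34640639-34640938, plus strand), IFIT3 (chr19:34583279-34583578, plus strand), ISG15 (chr4:156200769-156201068, minus strand) and LGALS9 (chr11:78984875-78985174, minus strand) read as follows.
IFIT1: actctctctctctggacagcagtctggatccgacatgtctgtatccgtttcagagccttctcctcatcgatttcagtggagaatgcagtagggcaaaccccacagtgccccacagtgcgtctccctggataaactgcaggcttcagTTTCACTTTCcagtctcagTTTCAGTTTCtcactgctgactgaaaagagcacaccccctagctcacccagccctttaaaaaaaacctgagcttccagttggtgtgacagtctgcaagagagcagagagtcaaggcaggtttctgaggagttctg
IFIT3: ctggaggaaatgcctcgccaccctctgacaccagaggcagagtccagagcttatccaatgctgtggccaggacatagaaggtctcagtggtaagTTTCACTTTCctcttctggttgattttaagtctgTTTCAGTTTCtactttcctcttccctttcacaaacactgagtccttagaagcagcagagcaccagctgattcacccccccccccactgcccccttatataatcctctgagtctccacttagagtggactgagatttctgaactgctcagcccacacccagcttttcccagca
ISG15: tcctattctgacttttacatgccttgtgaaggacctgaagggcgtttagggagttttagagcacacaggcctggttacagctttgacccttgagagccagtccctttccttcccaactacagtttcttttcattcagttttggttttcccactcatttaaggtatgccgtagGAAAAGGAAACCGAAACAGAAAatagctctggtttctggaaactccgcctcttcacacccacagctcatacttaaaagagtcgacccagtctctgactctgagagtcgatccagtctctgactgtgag
LGALS9: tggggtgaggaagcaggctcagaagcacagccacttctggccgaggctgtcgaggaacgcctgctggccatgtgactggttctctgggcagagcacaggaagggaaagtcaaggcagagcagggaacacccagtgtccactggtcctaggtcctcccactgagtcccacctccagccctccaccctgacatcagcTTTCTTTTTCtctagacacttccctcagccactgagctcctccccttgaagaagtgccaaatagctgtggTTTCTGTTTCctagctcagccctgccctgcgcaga
IFIT1, IFIT3 and LGALS9 each held 2 matches and ISG15 held 3 that overlap. The promoters of IRF7 and IFIT2, whose day 23 values also lay below their day 16 values, held none in these windows. Those of BCL6, CCL8, CD5L and IL1R2, genes described below, were also searched and held none.

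The same list was then followed in the treated arms, which share no library with the Isotype nodes. In the fit of all 36 nodes, its median difference between the days was 0.32 in CYTO, 0.03 in PD1, -0.26 in PD1/CYTO, 0.91 in TS/CYTO and -0.20 in TS/PD1/CYTO, and 0.13 over the mean of the 5 arms. The Isotype median of -0.60 lay below each of these. Without the nodes that stood apart it did not, since the medians were then -0.24 in PD1, 0.04 in PD1/CYTO and -0.73 in TS/PD1/CYTO, and 0.04 over the mean of the 5 arms. For IFIT3 the Isotype change minus the mean change of the treated arms was -1.38 ± 0.44 (SE, limma unadjusted p = 0.00441, adjusted p = 0.992), and it was -1.29 without those nodes. No gene passed the adjusted test of this difference in limma (0 of 11852, with 43 at an unadjusted p under 0.05), and 282 were at an unadjusted p under 0.05 without those nodes. The smallest p-values among genes with a negative difference of changes were those of MIR1291, LGALS9 and IFIT3, and among positive ones those of SPP1, MRPL51 and CMSS1. MIR1291 passed the filter on low values through the day 16 Isotype nodes only, so its p-value supports nothing here either. The mean change of the treated arms also gave 0 adjusted calls (0%), with 2336 genes at an unadjusted p under 0.05.

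**Figure D3:**
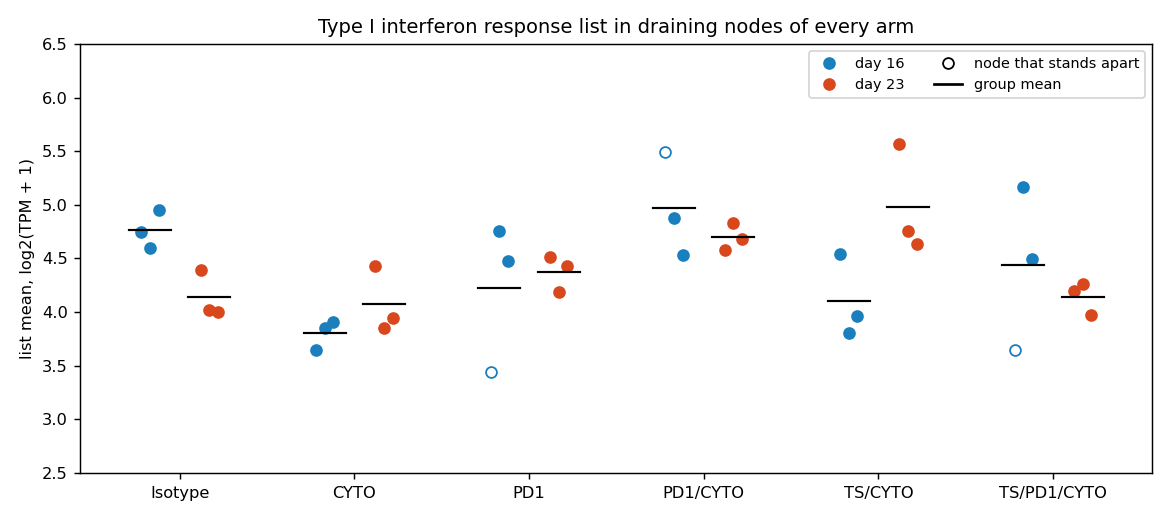
Mean log2(TPM + 1) of the 19 type I interferon response genes (y axis) in each of the 36 nodes, by arm (x axis) and day, with the group mean as a line and the 3 nodes that stood apart as open circles. The Isotype nodes run from 4.60 to 4.95 at day 16 and from 4.00 to 4.39 at day 23, and the treated arms do not share 1 direction.

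T cell genes had lower values at day 23, but 1 day 16 mouse already had them. All 19 T cell identity genes had negative differences, with a median of -0.22. The days did not overlap in 2 of the 19, a share under the 15.1% of all genes that lay wholly below, and in 0 after quantile normalization (background 7.94%). The list mean was 7.13, 7.04 and 6.64 in mice 4, 5 and 6 and 6.75, 6.67 and 6.70 in mice 8, 9 and 10, so mouse 6 lay below all day 23 nodes. LEF1, a transcription factor of naive T cells, was 6.93, 6.79 and 6.29 at day 16 and 6.24, 6.24 and 6.21 at day 23 (-0.44 ± 0.93 SE, limma unadjusted p = 0.639, 0.109 without the nodes that stood apart). CD3E, a chain of the T cell receptor complex, was 7.54, 7.65 and 7.11 at day 16 and 7.19, 7.03 and 7.07 at day 23, with overlap. Without a covariate the list median was -0.12 when mouse 4 was left out and -0.37 when mouse 6 was. With log2 tumor volume as a covariate it was 0.22 instead, and the differences of LEF1 (0.03) and CD3E (0.01) turned positive. The nodes that stood apart entered the slope of this covariate, and their part in these values was not tested.

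Genes of naive T cell homing and retention were lower in 8 of 8, with a median of -0.27, and 3 of the 8 did not overlap under either scaling (background 15.1%, or 7.94% after quantile normalization). With log2 tumor volume as a covariate the median was 0.17 instead, and it was -0.17 without mouse 4. KLF2, the transcription factor that maintains the exit receptor S1PR1 and L-selectin, was 7.50, 7.19 and 7.09 at day 16 and 6.99, 6.78 and 6.89 at day 23 (-0.37 ± 0.39 SE, limma unadjusted p = 0.347, 0.0496 without those nodes). FOXP1, which keeps naive T cells quiescent, was 6.57, 6.44 and 6.29 and then 6.12, 6.03 and 6.18. Every day 23 node lay below every day 16 node for both genes. Cytotoxic lymphocyte genes were lower in 14 of 14 (median -0.21), with 3 not overlapping (background 15.1%), and 0 after quantile normalization (background 7.94%). The median was -0.35 without mouse 6 and -0.03 with tumor volume as a covariate. GZMA, a granule protease, was 5.60, 6.27 and 5.76 at day 16 and 5.20, 5.57 and 5.28 at day 23. PRF1, the pore-forming protein perforin, was 4.56, 4.40 and 4.22 and then 4.07, 4.13 and 4.08.

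Regulatory T cell genes had values in the other direction. All 13 tested had positive differences, with a median of 0.19, and in 2 of them, IL10 and CTLA4, all day 23 values lay above all day 16 values (background 1.86%), or in 3 after quantile normalization (background 7.72%). CTLA4, an inhibitory receptor that competes with CD28 for its ligands, was 4.14, 4.33 and 4.04 at day 16 and 4.82, 4.37 and 4.89 at day 23. Mouse 9 was only just above mouse 5, and the difference was 0.52 ± 0.89 (SE, limma unadjusted p = 0.563, 0.0187 without the nodes that stood apart). FOXP3, the factor that defines these cells and is named here for that role, was 4.37, 4.26 and 4.04 at day 16 and 4.40, 4.13 and 4.44 at day 23. Its days overlapped, and with the adipocyte list mean as a covariate its difference of 0.10 became -0.06. The list median was 0.07 without mouse 8, 0.10 without mouse 6 and 0.33 without mouse 9, and the list mean overlapped as well, at 3.31, 3.42 and 3.11 against 3.65, 3.29 and 3.59.

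Among inhibitory receptors and exhaustion genes, 10 of 13 were higher and 3 lower, with a median of 0.13. That median was -0.01 with the adipocyte list mean as a covariate, 0.02 without mouse 6 and 0.22 without mouse 5. TIGIT, an inhibitory receptor of T cells and NK cells, was 3.96, 4.00 and 3.47 at day 16 and 4.15, 4.33 and 4.40 at day 23. ENTPD1, which encodes CD39, an enzyme that breaks down extracellular ATP, was 4.17, 4.47 and 4.39 and then 4.60, 5.00 and 4.62. Both, like CTLA4, lay wholly higher at day 23, and these are the 3 of the 13 that did, with 3 also after quantile normalization (background 1.86% and 7.72%). Wholly lower was 1 of the 13, and 0 after quantile normalization (background 15.1% and 7.94%). CTLA4 is counted in this list and in the regulatory T cell list.

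**Figure D4:**
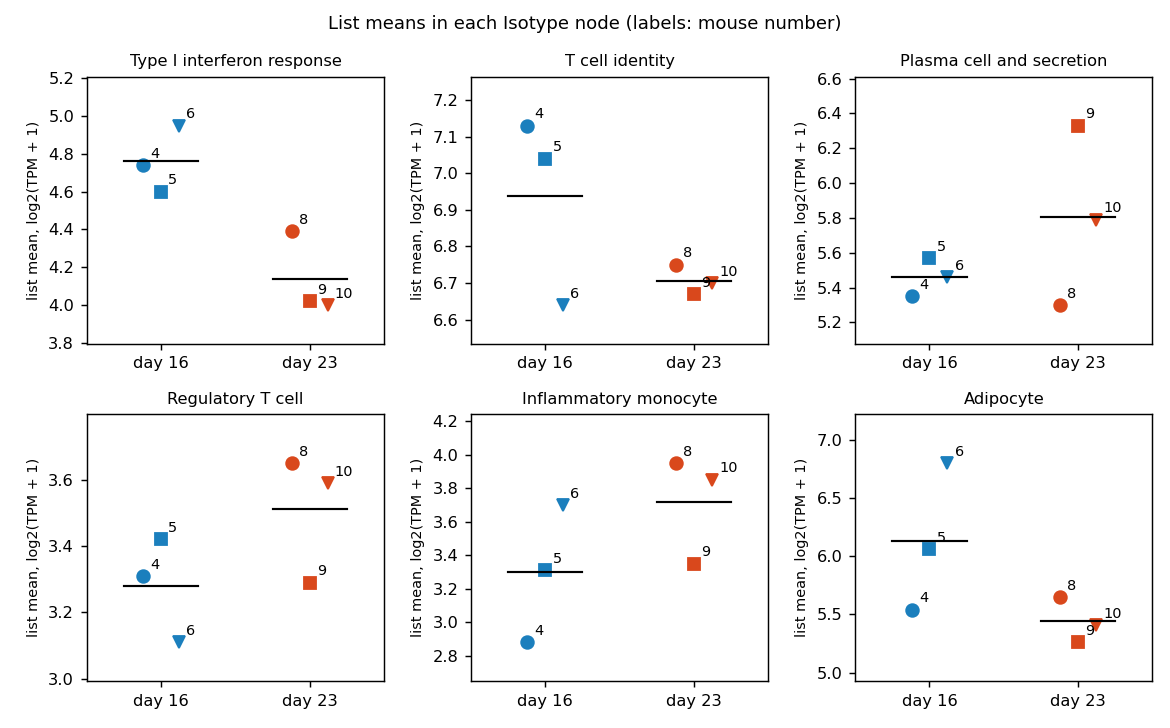
Mean log2(TPM + 1) of 6 gene lists (y axes, each on its own range that does not start at 0) in each Isotype node by day, with the mouse number beside each point and the mean of the day as a line. The days separate without overlap for the type I interferon list, while for T cell genes mouse 6 of day 16 lies with the day 23 nodes and for plasma cell genes mouse 9 lies above all others.

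Antibody-secreting cell genes were higher on average at day 23, and 1 mouse carried much of this. All 18 plasma cell and secretion genes had positive differences, with a median of 0.30, and the days separated in 1 of the 18 (background 1.86%), or in 2 after quantile normalization, near the 7.72% of all genes. TNFRSF17, the gene that separated and encodes the receptor BCMA that supports plasma cell survival, was 1.18, 1.46 and 1.81 at day 16 and 1.88, 3.20 and 2.46 at day 23 (1.03 ± 0.62 SE, limma unadjusted p = 0.106, 0.0438 without the nodes that stood apart). JCHAIN, which joins IgM and IgA units and was named after its values were seen, was 9.51, 10.12 and 10.31 at day 16 and 9.75, 11.75 and 10.68 at day 23. Mouse 9 was the highest and mouse 8 lay within the day 16 range. Without mouse 9 the list median was 0.04, and without mouse 8 it was 0.48.

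Of 9 immunoglobulin constant region genes, 7 were higher and 2 lower, with a median of 0.43, and 0.17 without mouse 9. IGHM, the constant region of IgM, was 10.82, 10.74 and 11.01 at day 16 and 11.27, 11.63 and 11.20 at day 23, without overlap (0.51 ± 1.06 SE, limma unadjusted p = 0.633, 0.0152 without the nodes that stood apart). IGHG3 was 5.59 to 6.32 at day 16 and 5.93, 9.17 and 6.96 at day 23, where mouse 9 stood out. IGHE, the constant region of IgE, was 8.67, 8.51 and 7.17 at day 16 and 7.07, 6.00 and 7.32 at day 23, with a negative difference of -1.32 ± 1.37 (SE) and overlap. Constant regions are similar in sequence, so their separate values are uncertain. B cell identity genes had a median of -0.04, with 5 higher and 11 lower of 16, where 72.1% of all genes were lower. In the germinal center list 11 of 15 were lower (median -0.09), near that share of all genes. BCL6, the transcription factor required for germinal center B cells and follicular helper T cells, was 5.47, 5.32 and 5.28 at day 16 and 4.90, 4.83 and 4.99 at day 23, without overlap (-0.45 ± 0.21 SE, limma unadjusted p = 0.0438). IL21, a cytokine of follicular helper T cells, went the other way at low levels, with 0.40, 0.75 and 0.01 at day 16 and 0.87, 0.85 and 0.86 at day 23.

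Macrophage and monocyte genes had mostly higher values at day 23. Of 19 tissue and sinus macrophage genes 14 were higher and 5 lower, with a median of 0.17 and 1 wholly higher (3 after quantile normalization), where 1.86% of all genes (7.72%) lay wholly higher. Of 12 inflammatory monocyte genes 10 were higher and 2 lower, with a median of 0.32 and 2 wholly higher (4 after quantile normalization), against the same shares. Without mouse 4 of day 16 the medians were 0.04 and 0.12, and with tumor volume as a covariate 0.07 and 0.01. CD5L, a secreted scavenger protein of macrophages, was 0.25, 1.30 and 1.50 at day 16 and 2.34, 3.19 and 3.47 at day 23. The days did not overlap and mouse 4 was the lowest, with a mean TPM of 1.16 against 7.42. The difference was 1.98 ± 0.83 (SE, limma unadjusted p = 0.0242), and the mean change in the treated arms without the nodes that stood apart was 1.62, also higher at day 23. LYVE1, a hyaluronan receptor of lymphatic endothelium that some macrophages also carry, was 4.41, 4.54 and 4.83 at day 16 and 5.35, 4.92 and 5.34 at day 23, without overlap (0.61 ± 0.32 SE, limma unadjusted p = 0.0715). PROX1, the transcription factor that defines lymphatic endothelium, was 0.99, 1.29 and 1.62 and then 1.85, 1.45 and 1.51, with overlap.

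CCL8, a monocyte-attracting chemokine, was 6.08, 6.48 and 7.61 at day 16 and 8.20, 7.37 and 8.15 at day 23. Mouse 6 of day 16 lay above mouse 9 of day 23, and the difference was 1.18 ± 0.52 (SE, limma unadjusted p = 0.0321). Its neighbour in the chemokine family, CCL7, was 3.32, 3.64 and 3.72 and then 4.55, 3.68 and 4.24, also with overlap. SPP1, which encodes osteopontin, a secreted protein of macrophages and of some tumor cells, was 1.60, 2.87 and 3.00 at day 16 and 4.99, 4.12 and 4.21 at day 23, without overlap. Its difference was 1.95 ± 1.15 (SE, limma unadjusted p = 0.101, 0.0265 without the nodes that stood apart), and it exceeded the change of the treated arms by 3.42 ± 1.26 (SE, limma unadjusted p = 0.0116, adjusted p = 0.992), or by 2.67 without those nodes. SPP1 also stands in the CT26 tumor cell list, in which 6 of 11 tested genes, SPP1 included, were higher and 5 lower, with a median of 0.01. NOS2, the inducible nitric oxide synthase, was lower at day 23, with 1.02, 0.85 and 1.26 at day 16 and 0.78, 0.15 and 0.66 at day 23. IL1R2, a decoy receptor for interleukin-1, was 2.77, 2.51 and 2.86 at day 16 and 3.66, 3.29 and 3.82 at day 23, without overlap (0.88 ± 0.35 SE, limma unadjusted p = 0.0189, 0.00727 without those nodes). It stands in the mature neutrophil list, in which 5 of 10 genes were higher and 5 lower, with a median of 0.05.

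The other genes of smallest p have varied roles. SEC61G, a subunit of the channel that carries new proteins into the endoplasmic reticulum, was 6.59, 6.80 and 6.61 at day 16 and 7.01, 7.14 and 7.25 at day 23 (0.47 ± 0.17 SE, limma unadjusted p = 0.0112). CREG1, a secreted glycoprotein found in lysosomes, was 5.30, 5.39 and 5.60 and then 5.77, 5.77 and 5.83. TNIP3, a binding partner of the NF-kappa-B inhibitor A20, was at 0.01 to 0.04 at day 16 and 0.57 to 1.08 at day 23, and it passed the filter on low values through the day 23 nodes. RAB11B, a small GTPase of recycling vesicles, was 7.07, 7.09 and 7.11 at day 16 and 6.83, 6.77 and 6.78 at day 23. WDR89, a WD-repeat protein, was 3.36, 3.48 and 3.49 and then 2.81, 3.03 and 2.75. The days did not overlap in any of these genes, where 1.86% of all genes lay wholly above and 15.1% wholly below. They were picked for a small p in this same comparison, so the separation is not further evidence. The p-value of TNIP3, a gene near the floor at day 16, supports nothing.

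Adipocyte genes differed in the amount found in each node. All 13 tested had negative differences, with a median of -0.67. The days did not overlap in 4 of them, PLIN1, LEP and PNPLA2 among these, under either scaling (background 15.1%, or 7.94% after quantile normalization). The median was -0.36 without mouse 6 and -1.02 without mouse 4. PLIN1, which coats fat droplets, was 5.32, 5.76 and 6.40 at day 16 and 4.80, 4.58 and 4.56 at day 23 (-1.18 ± 1.46 SE, limma unadjusted p = 0.427). The list mean was 5.54, 6.06 and 6.80 at day 16 and 5.65, 5.26 and 5.41 at day 23, so mouse 4 lay within the day 23 range, and the summed level of the list was 1350 to 3540 TPM at day 16 and 1160 to 1680 TPM at day 23. UCP1, the marker of brown fat, was at the floor in all 6. Epithelial genes also ran from low in mouse 4 to high in mouse 6, with list means of 2.19, 3.20 and 3.83 at day 16 and 3.43, 3.05 and 3.06 at day 23 and a median difference of 0.02. With the adipocyte list mean as a covariate, the median difference of the type I interferon list was -0.67, that of T cell identity -0.34, that of plasma cell genes 0.17 and that of regulatory T cell genes 0.12; the part of neighbouring fat in single genes was not tested further.

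Metabolic and housekeeping groups had medians between -0.13 and 0.08. Cholesterol synthesis genes were lower in 14 of 15, with a median of -0.13, and 6 did not overlap (background 15.1%), or 3 after quantile normalization (background 7.94%), where the median was -0.04. SREBF2, the transcription factor that drives this pathway, was 6.65, 6.49 and 6.34 at day 16 and 6.19, 6.19 and 6.20 at day 23, and DHCR7, an enzyme of its last steps, was 4.67, 4.59 and 4.33 and then 4.26, 4.24 and 4.15. Proliferation genes had a median of 0.08 (19 of 28 higher, with 0 separated, or 1 wholly higher after quantile normalization), which was -0.16 without mouse 6, -0.12 with the adipocyte mean and -0.10 with tumor volume as a covariate. The medians were 0.02 for cytosolic ribosomal proteins and -0.02 for respiratory chain genes. Antigen processing, unfolded protein response, hypoxia and glycolysis, and NF-kappa-B genes had medians of -0.04, -0.06, -0.09 and -0.04.

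**Figure D5:**
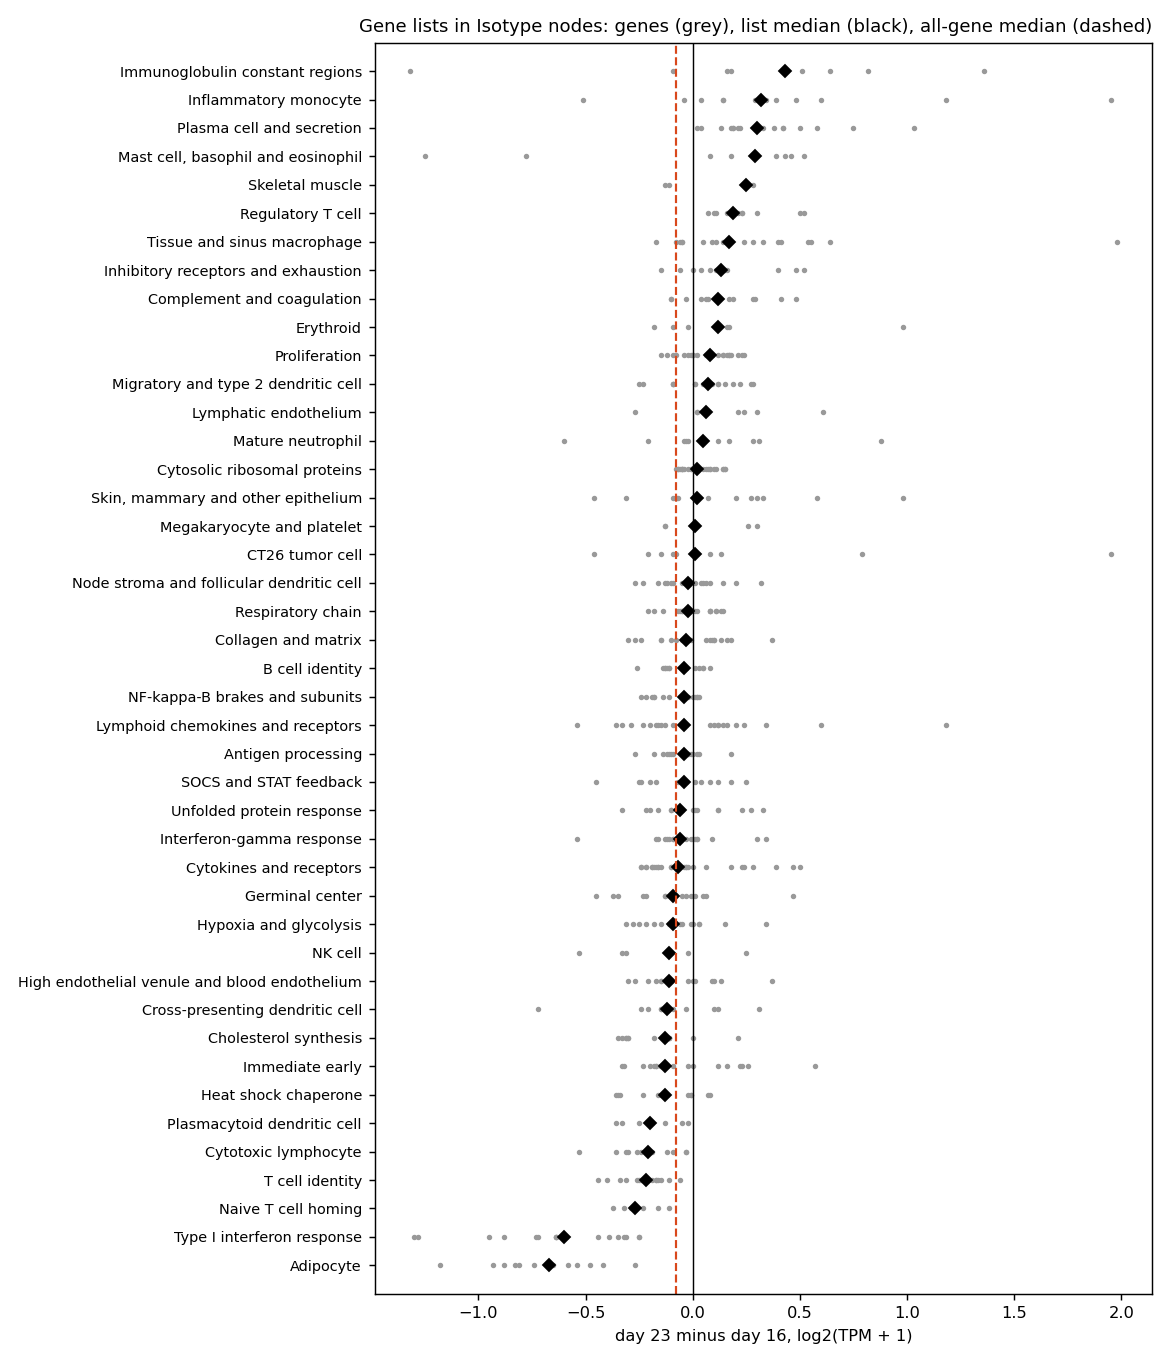
Difference between day 23 and day 16, log2(TPM + 1) (x axis), of each tested gene (grey points) and the median (black diamond) of the 43 gene lists with at least 5 tested genes (y axis), with a dashed line at the median of all genes, -0.08. The adipocyte (-0.67) and type I interferon (-0.60) lists have the lowest medians, and the immunoglobulin constant region (0.43), inflammatory monocyte (0.32) and plasma cell (0.30) lists the highest.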

How the data were processed

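Polyadenylated RNA of 72 tissue samples was sequenced in paired-end stranded libraries, per the labels' protocols. Per the submitters' processing notes, bcl2fastq 2.20, STAR and RSEM 1.3.0 were used with the mm10 build; the annotation release and the strand setting are not given in the sources used here. Values of log2(TPM + 1) were deposited by the authors as 1 table, with 16835 genes under upper-case symbols and 1 column per library, all matched by name. Positions come from GENCODE M21, where 11504 of 11852 tested symbols had a single match.

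The deposited values were fitted in R 4.3.3 with limma 3.58.1 (trend and robust empirical Bayes) over 36 nodes in 12 groups of arm and day, without covariates, with Benjamini-Hochberg adjustment at 5%. Contrasts were the Isotype change, the mean change of the 5 treated arms and their difference. The code was tested on simulated data with the spread within the 6 Isotype nodes (median residual SD 0.126), smaller than that of the 36 nodes (0.332). That test does not show which differences the fit of the 36 measured nodes could detect. Differences on this scale understate those of genes near the floor, and with unknown depth the precision comes from the spread between mice. No pair of libraries among the 6 was duplicated (highest r 0.993).

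Genes were named by a rule: up to 6 of smallest p in each direction where fewer were called, up to 4 members of smallest p per list, and 3 and 3 for the difference of changes. Exceptions are stated. Genes named for a small p were picked from this same comparison, so separation of their days is not further evidence. The members and the 45 gene lists were chosen with earlier results of these data known, so none of the lists is independent evidence. Lists are described by counts and medians beside those of all genes, without a test. Figures were drawn with Python 3.11.15 and matplotlib 3.10.9.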

Additional observations from a re-analysis of the deposited data

How the results depend on the processing

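The count of genes called between the days in the Isotype nodes was 0 under each alternative run with the spread pooled over nodes: quantile normalization, listed TPM rescaled to 1 sum, no filter, a stricter filter, a pseudocount of 0.1, RIN, adipocyte list mean or log2 tumor volume as a covariate, limma without trend and robust options, and without each of the 36 nodes in turn (0 to 0). It was 3 with the 6 nodes alone and 3 with these quantile-normalized, the latter added after the data were seen; the 3 genes were MIR1291, SNORA31 and SNORA43 in both, each at the floor in every node of 1 day. The fits of 6 nodes use fewer samples and a smaller spread.

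For the mean change of the treated arms the count was 0, and 1 without a filter (MYO16); leaving out 1 node gave 0 to 150, with 150 without mouse 23 of PD1/CYTO at day 16 and 1 (CD5L) without mouse 60 of TS/PD1/CYTO at day 23. The difference of changes gave 0 in every alternative run (0 to 0). The difference in log2 tumor volume was 1.99 to 2.84 without each mouse in turn.

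Of 944 values of 54 named genes, 933 kept direction and side of the threshold. Signs turned with tumor volume as a covariate for LEF1 (0.03), TCF7 (0.35), CD3E (0.01) and BCL11B (0.05), and with the adipocyte mean for FOXP3 (-0.06); the cause was not tested. Without each Isotype node in turn the list median ran from -0.76 to -0.49 for type I interferon, -0.37 to -0.12 for T cell identity, 0.04 to 0.48 for plasma cells, 0.07 to 0.33 for regulatory T cells, 0.12 to 0.45 for inflammatory monocytes, 0.04 to 0.27 for macrophages and -1.02 to -0.36 for adipocytes. With tumor volume as a covariate the adipocyte median was -1.48 and the monocyte median 0.01. No paired analysis was possible because the nodes of day 16 and day 23 come from different mice that share no number.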

Other observations

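Further gene groups of the Isotype nodes had medians between -0.13 and 0.29. NK cell genes were lower at day 23 in 7 of 8, with a median of -0.11, or -0.03 after quantile normalization. Over all genes 72.1% were lower and the median was -0.08. GZMA and EOMES are counted in this list and in the cytotoxic lymphocyte list. Mast cell, basophil and eosinophil genes were higher in 7 of 9, with a median of 0.29. Only 1 of the 9 had days that did not overlap, and it was lower at day 23, under either scaling. FCER1A, MS4A2, EPX and CCR3 of that list were at the floor in all 6 nodes. The median of the mast cell, basophil and eosinophil list was -0.13 with log2 tumor volume as a covariate, 0.04 without mouse 4, 0.15 without mouse 5 and 0.63 without mouse 6. The NK cell median was -0.17 to -0.18 without mouse 5, 6 or 8. Mature neutrophil genes were split, with 5 higher and 5 lower of 10 and a median of 0.05, which was -0.11 without mouse 8 and -0.20 with tumor volume as a covariate. Immediate early genes, which respond within minutes to stimulation or handling, were lower in 13 of 20 (median -0.13), where 72.1% of all genes were lower. In 4 of the 20 the days did not overlap, or in 3 after quantile normalization, where 15.1% and 7.94% of all genes lay wholly below. The median of the list was -0.07 without mouse 4 and 0.00 without mouse 9. Heat shock chaperone genes were lower in 12 of 14, with a median of -0.13, or -0.04 after quantile normalization. No gene of these groups passed the adjusted test in limma.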
